A study of Mus musculus with 12 samples.

Results

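RBM genes are named for the RNA-binding motif (RRM), a small protein fold that grips single-stranded RNA. Their rows were taken from the table of counts of mouse striatum by name (Rbm, a number, at most a letter and a further digit) and by level, with a CPM on total counts of at least 0.5 in at least 3 of 12 libraries (CPM, counts per M of the library's total). Of the 57132 features of the table, 39 had such a name, and 33 of these passed the limit on levels, among 13902 features tested. The name does not describe a family by descent, since its genes share a fold and little else.

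RBM proteins attend messenger RNA from its synthesis to its removal. Some decide which splice sites the spliceosome uses, some are parts of the spliceosome or of the exon junction complex that stays on spliced RNA, and others guide the methylation of adenosine (m6A), hand nuclear RNA to the exosome for decay, or work in the nucleolus on ribosome assembly. Neurons splice many of their transcripts in alternative forms, and several RBM proteins are studied for this in brain, muscle and tumours.

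The study compared TAAR5-KO mice, which lack the trace amine-associated receptor 5, with wild-type littermates (TAAR5-WT), all C57Bl/6 and 10 months old, to see how loss of this receptor shifts striatal expression. Striatum was the part of a coronal slice in front of Bregma that was left after removal of the cortex, and its RNA was depleted of ribosomal RNA and sequenced in directional libraries. There were 6 libraries of each label, NK1 to NK6 for TAAR5-KO and NK7 to NK12 for TAAR5-WT, from mice of both sexes, with no library tied to a sex or to a numbered animal. Taar5, the deleted gene, had 2, 3, 2, 1, 2 and 6 counts in the 6 libraries labelled TAAR5-KO and 0, 1, 0, 0, 2 and 0 in those labelled TAAR5-WT. A count of 0 allows up to 3 counts. These counts are low, with only NK6 above 3, and they run against the labels without settling whether the labels are right. Libraries are therefore called by their label, and every direction follows those labels.

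Libraries labelled TAAR5-KO held 13766808 to 34824450 counts and those labelled TAAR5-WT 11269915 to 21198210, but ribosomal RNA took 73.8% to 88.1% and 64.3% to 87.4% of them, and between 1819907 and 6399188 counts per library were left for other genes. The summed level of 5 astrocyte markers was lower in libraries labelled TAAR5-KO (130 to 172 CPM against 182 to 204, a ratio of 0.805, two-sided exact permutation test over 924 assignments, p = 0.00216, the smallest possible, adjusted over 8 lists p = 0.0173). The 5 markers of microglia had a ratio of 0.801 (21.8 to 31.7 against 29.9 to 38.3 CPM, exact permutation adjusted p = 0.0173), the 5 of oligodendrocytes 0.862 (429 to 539 against 484 to 620 CPM, adjusted p = 0.0404) and the 8 of striatal spiny neurons 1.21 (238 to 303 against 143 to 261 CPM, adjusted p = 0.0519). The summed levels for endothelium (4.11 to 6.26 against 3.72 to 5.54 CPM), cortical pyramidal neurons (44.7 to 117 against 49.4 to 122 CPM), choroid plexus (2.53 to 467 against 3.37 to 285 CPM) and ependyma (1.30 to 7.37 against 2.64 to 5.03 CPM) had exact permutation adjusted p values of at least 0.765. No marker of these lists was at 0 in all libraries. Taken singly, 1 of 5 astrocyte and 2 of 5 microglia markers had an edgeR adjusted p under 0.1 over all features. Of the oligodendrocyte and spiny neuron markers, 0 of 5 and 0 of 8 did. The sums give most weight to the markers with the highest levels. In tissue RNA, fewer cells of a type and less RNA per cell cannot be told apart, and the part of these shifts in the RBM levels was not tested.

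Levels of the 33 genes were compared per length first, as CPM per kb of merged exons, with CPM from here on scaled by edgeR's TMM library sizes. Merged exons join those of all annotated transcripts of a gene and can be longer than any 1 of them. The order per kb therefore depends on the annotation, and Rbm25 ranked 1 by CPM and 4 per kb. Rbm39, a splicing factor and coactivator of transcription, had the highest level at 3.61 ± 0.435 (SD, n = 12 libraries). Rbm27 followed at 2.21 ± 0.183, and it and its paralogue Rbm26 (1.55 ± 0.226) are zinc-finger proteins that work with the nuclear exosome. Rbm17, which helps to recognise the end of introns, stood at 1.83 ± 0.237 and Rbm25, a partner of the U1 small nuclear ribonucleoprotein, at 1.61 ± 0.292. Rbm39 exceeded Rbm27, Rbm27 exceeded Rbm17 and Rbm26 exceeded the next gene, Rbm8a, in 12 of 12 libraries each. Rbm17 exceeded Rbm25 in 8 of 12 libraries and Rbm25 exceeded Rbm26 in 7 of 12, so these neighbours did not differ beyond their spread.

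At the lower end stood Rbm4 at 0.120 ± 0.0316 CPM per kb, the nucleolar gene Rbm19 at 0.107 ± 0.0379 and Rbm20, the regulator of titin splicing in heart, at 0.0768 ± 0.0287. Their order was not firm, since Rbm4 exceeded Rbm19 in 8 of 12 libraries and Rbm19 exceeded Rbm20 in 8 of 12. Rbm20 and Rbm4 were also the members just inside the limit on levels, where the CPM on total counts in the library ranked 3 was 0.952 and 1.25. Just outside it, Rbm38 reached 0.363 and Rbm46 0.270 by the same measure.

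**Figure D1:**
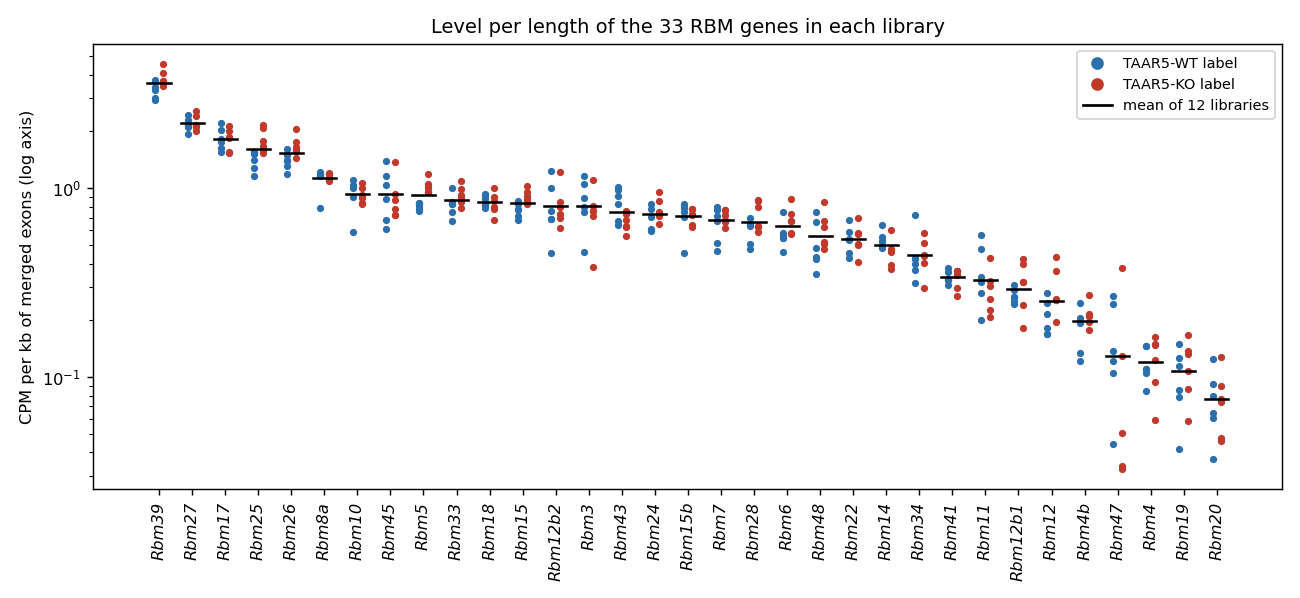
The vertical axis, on a log scale, gives CPM per kb of merged exons for each of the 33 RBM genes along the horizontal axis, with a point for each library (TAAR5-WT label left, TAAR5-KO label right) and a bar at the mean of 12 libraries. Rbm39 leads at 3.61 and Rbm20 ends the order at 0.0768, while the points of most neighbours overlap; the value of 0 for Rbm47 in NK1 has no place on a log axis and is not drawn.

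The 6 genes below the limit had few or no counts. Rbm38, which binds the transcripts of stress and differentiation genes, had 0 to 11 counts per library (41 in all), and Rbm46, a germ cell gene, also had 0 to 11 (45 in all). Rbm44 had at most 3 counts in a library, and Rbm8a2, a copy of Rbm8a, at most 2. Rbm31y on the Y chromosome had 0 counts in all 12 libraries, and each 0 allows up to 3 counts. All 93 of the 100-base windows of its exons matched another place in the genome with at most 2 differences. How reads with several places were treated is not given in the sources used here, so its 0 cannot be read as absence of its RNA. Rbm42, a spliceosomal gene, had at most 1 count in a library, and 75.4% of its exon bases lie in exons of Gm21982 on the same strand, a gene with 0 counts in every library. How reads in such shared exons were counted is not given in the sources used here, so the low count of Rbm42 cannot be read as absence of its RNA.

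Between the labels, 22 of the 33 RBM genes had a higher fitted level in libraries labelled TAAR5-KO and 11 a lower one, with a median log2 fold change of 0.09 (range -0.52 to 0.49). Of all 13902 features tested, 48.9% were higher, with a median of -0.01. By the likelihood ratio test of edgeR at a Benjamini-Hochberg adjusted p under 0.1, Rbm5 and Rbm25 were called, both higher, which is 2 of 33 genes (6.06%) where 1.65% of all features were called (0.957% higher and 0.691% lower). By the quasi-likelihood test, 1 of 33 was called, Rbm5 (3.03%, against 0.453% of all features), and DESeq2 called both (against 1.27% of all features). DESeq2 gave no adjusted p for 7009 of the 13902 features, so its share among features that could be called is higher than 1.27%. Rbm5 was also the only RBM gene whose 6 levels under each label did not overlap (3.03%, against 0.626% of all features in that direction and 1.01% in either), and no RBM gene was apart in the lower direction. Without NK4 there were 3 such genes, Rbm25 higher and Rbm14 lower besides Rbm5, but groups come apart more easily with fewer libraries. The share of all features apart without NK4 was not counted, so the shares above give no background for this number.

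No other RBM gene passed the test across all features. At an unadjusted p under 0.05 by the likelihood ratio test, 8 RBM genes stood out, all of them higher in libraries labelled TAAR5-KO (24.2%, against 6.39% of all features in that direction): Rbm5, Rbm25, Rbm26, Rbm12, Rbm6, Rbm28, Rbm39 and Rbm15. The RBM genes were chosen with earlier results of these data known. This share and those of called genes above therefore describe the RBM genes and do not test them as a set. The quasi-likelihood test put 9 of 33 RBM genes under 0.05, against 1667 of 13902 features, and among the 9 was Rbm43, which was lower (unadjusted p = 0.0441). By the likelihood ratio test in either direction, the number of RBM genes under 0.05 fell to 4 without NK1 and to 5 without NK7 or without NK12. The number of all features under 0.05 fell as well. It went from 1654 of 13902 to 1270 of 13902 without NK1, 1398 of 13542 without NK7 and 1406 of 13605 without NK12. With the share of ribosomal RNA in each library as a covariate, 3 of 33 RBM genes were under 0.05, where 1299 of 13902 features had such a p. Once the trend on GC content was taken out of each library, 2 of 33 RBM genes were, where 1233 of 13902 features had one. Under both of these settings the RBM share was not above that of all features. When library size alone set the scale, the median of all features shifted to -0.49 and all 33 RBM genes had lower values under the TAAR5-KO label (median -0.36). Every direction given here is therefore relative to the bulk of features, as TMM sets it. The TMM factors that rescale the library totals were far apart, from 0.375 in NK1 to 2.46 in NK7.

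**Figure D2:**
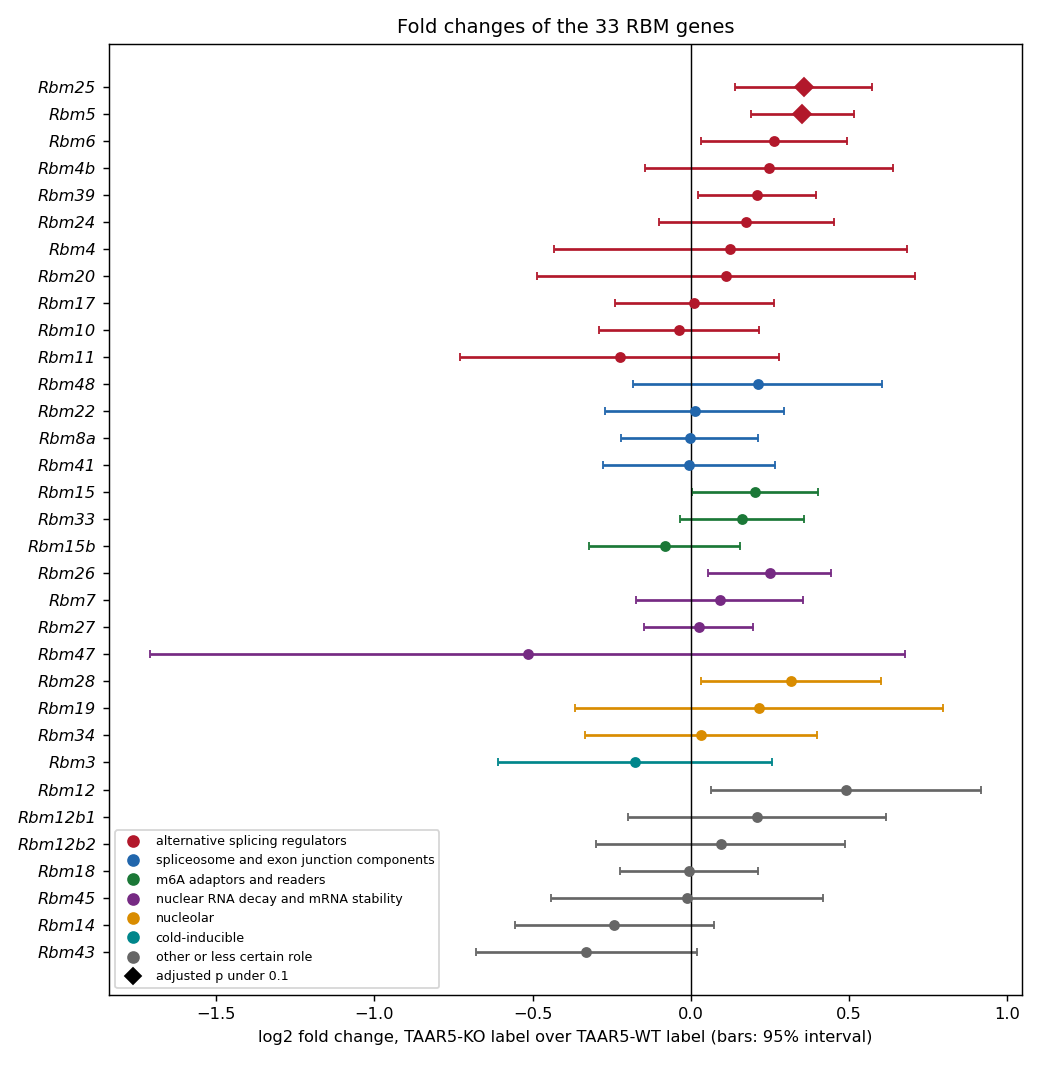
The horizontal axis gives the log2 fold change of TAAR5-KO over TAAR5-WT label for each of the 33 RBM genes, with its 95% interval, and colours give roles. Diamonds mark Rbm25 and Rbm5, the genes with an adjusted p under 0.1, and 22 of the 33 points lie right of 0 on the TMM scale (0 of 33 with library size as the only scaling).

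Regulators of alternative splicing were the largest role group, with 11 genes, of which 9 had higher values in libraries labelled TAAR5-KO (median log2 fold change 0.18) and 2, Rbm5 and Rbm25, passed the test. Rbm5 changes splice choice in transcripts of apoptosis genes and lies beside its paralogue Rbm6 on chromosome 9, on the same strand with 2562 bases between the genes. The promoters of this pair, of Rbm25 and of Rbm39 are shown because these were the splicing regulators with an unadjusted p under 0.05. Each is the 250 bases before the start of the canonical transcript in GENCODE M39 (GRCm39), read 5′ to 3′ on the gene's strand, with capitals on a CCAAT box in either orientation (CCAAT or ATTGG) and, in Rbm25, on an ETS core as well (CCGGAA). The windows of Rbm6 and Rbm25 lie inside the spans on which these genes were counted, which start further upstream.
Rbm5, chr9:107648208-107648457, minus strand: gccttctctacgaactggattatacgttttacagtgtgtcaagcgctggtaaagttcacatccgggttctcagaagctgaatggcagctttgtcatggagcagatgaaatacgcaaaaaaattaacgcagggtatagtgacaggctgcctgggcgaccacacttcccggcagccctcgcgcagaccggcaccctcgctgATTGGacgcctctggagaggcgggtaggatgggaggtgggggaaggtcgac
Rbm6, chr9:107750029-107750278, minus strand: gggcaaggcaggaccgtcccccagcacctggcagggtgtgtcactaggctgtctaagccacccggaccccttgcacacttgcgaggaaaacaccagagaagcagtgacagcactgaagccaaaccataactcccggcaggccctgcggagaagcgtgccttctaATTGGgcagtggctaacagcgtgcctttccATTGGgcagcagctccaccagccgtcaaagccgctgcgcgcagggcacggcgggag
Rbm25, chr12:83678735-83678984, plus strand: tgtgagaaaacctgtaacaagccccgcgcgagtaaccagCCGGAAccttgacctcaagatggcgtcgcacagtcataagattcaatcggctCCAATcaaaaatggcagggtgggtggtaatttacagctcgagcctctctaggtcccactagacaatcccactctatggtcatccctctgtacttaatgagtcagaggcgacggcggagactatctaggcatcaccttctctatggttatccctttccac
Rbm39, chr2:156022238-156022487, minus strand: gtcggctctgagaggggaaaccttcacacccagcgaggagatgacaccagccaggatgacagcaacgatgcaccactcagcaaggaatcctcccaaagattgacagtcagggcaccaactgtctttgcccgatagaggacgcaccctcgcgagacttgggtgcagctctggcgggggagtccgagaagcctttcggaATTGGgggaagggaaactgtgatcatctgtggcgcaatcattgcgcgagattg

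A CCAAT box was present in these 4 promoters and in 16 of the 33 RBM promoters (48.5%), against 35.9% of the 12603 promoters of protein-coding genes tested. The other motifs were likewise sought on either strand, and none of them contains another. The GC box (GGGCGG) was in 9 of 33 (27.3%) against 49.3%, the ETS core in 2 of 33 (6.06%, Rbm25 and Rbm34) against 16.8%, and the TATA box (TATAAA) in 4 of 33 (12.1%, Rbm4, Rbm10, Rbm12b1 and Rbm41) against 7.09%. Rbm3 was the only RBM gene with a full cAMP response element (TGACGTCA, 2.10% of all promoters), Rbm12b2 the only one with an NRF1 motif (5.64%), and none held the E box CACGTG (7.73%). RBM promoters had a median GC content of 51.6%, below the 56.8% of all these promoters, with the same median of 12 CpG. These are matches of letters in a window and say nothing of binding.

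Rbm5 (ENSMUSG00000032580.13, chromosome 9, 107617570 to 107648195) ran from 14.8 to 18.4 CPM with a median of 15.6 in libraries labelled TAAR5-KO. In those labelled TAAR5-WT it ran from 11.7 to 12.98 CPM with a median of 12.6. The groups did not overlap, and NK1 held the highest value. The means were 15.9 ± 1.34 and 12.5 ± 0.503 CPM (SD, n = 6), a log2 fold change of 0.35 (SE 0.083, 1.28-fold, edgeR adjusted p = 0.00825 by the likelihood ratio test and 0.0624 by the quasi-likelihood test). The call stood without any 1 library (adjusted p 0.00601 to 0.0595), but not after removal of the GC trend (0.27, adjusted p = 0.157), without a filter on low counts (adjusted p = 0.269) or with library size as the only scaling (-0.14).

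Rbm25 (ENSMUSG00000010608.16, chromosome 12, 83678010 to 83729897), which with U1 steers the choice of 5′ splice sites, ran from 26.9 to 37.7 CPM with a median of 30.0 in libraries labelled TAAR5-KO. The libraries labelled TAAR5-WT ran from 20.3 to 27.1 CPM with a median of 25.5. NK1 (37.7 CPM) and NK2 (36.5 CPM) stood above the others, and 5 of the 6 libraries labelled TAAR5-KO, all but NK4, exceeded every library of the other label. The means were 31.5 ± 4.57 and 24.6 ± 2.77 CPM (SD, n = 6), and the log2 fold change of 0.36 (SE 0.11, 1.28-fold) had an edgeR adjusted p of 0.0842 by the likelihood ratio test and 0.173 by the quasi-likelihood test. Rbm25 rested on single libraries more than Rbm5 did: its edgeR adjusted p was over the threshold without NK1 (0.261), NK2 (0.232), NK3 (0.151), NK7 (0.192), NK10 (0.1002), NK11 (0.270) or NK12 (0.225). It also lost its call after removal of the length trend (adjusted p = 0.105) or of the GC trend (0.16, adjusted p = 0.570), with the ribosomal RNA share as covariate (0.27, adjusted p = 0.300) and without a filter (adjusted p = 0.312), and its value was -0.16 with library size as the only scaling.

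Rbm6 (ENSMUSG00000032582.15, chromosome 9, 107650758 to 107750436), a splicing regulator related to Rbm5, ran from 8.02 to 12.3 CPM in libraries labelled TAAR5-KO and from 6.38 to 10.5 CPM in those labelled TAAR5-WT. Its groups overlapped, with NK1 the only library above all of the other label, and the log2 fold change was 0.26 (SE 0.12, edgeR adjusted p = 0.328). Rbm10, the third gene of this paralogue group and one known from splicing defects in tumours, gave 3.43 ± 0.351 against 3.50 ± 0.687 CPM (log2 fold change -0.04, SE 0.13). Copies elsewhere in the genome matched 53.5% of the 100-base windows of Rbm10 exons with at most 2 differences, against 7.24% for Rbm6 and 0.576% for Rbm5, so the count of Rbm10 depends on how reads with several places were treated, which the sources used here do not give. Per kb, Rbm5 (0.920) exceeded Rbm6 (0.629) in 12 of 12 libraries and Rbm10 (0.933) in 5 of 12. Merged exons were 15434 bases for Rbm5 and 3714 for Rbm10. By mean CPM, Rbm5 was above Rbm10 under the TAAR5-KO label (15.9 against 3.43) and the TAAR5-WT label (12.5 against 3.50), so their order depends on the length used.

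Rbm39 (ENSMUSG00000027620.17, chromosome 2, 155989159 to 156022158) ran from 24.2 to 31.5 CPM with a median of 25.8 under the TAAR5-KO label. Under the TAAR5-WT label it ran from 20.5 to 26.1 CPM with a median of 23.5. The groups overlapped, with NK1 and NK4 above all libraries of the other label, and the log2 fold change was 0.21 (SE 0.095, edgeR adjusted p = 0.343). Rbm17, whose protein binds the splicing factor SF3b, did not differ beyond its error (0.01, 95% interval -0.24 to 0.26).

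Rbm4 and Rbm4b are paralogues on chromosome 19 that act on splicing and translation. Their coding sequences were 86.5% identical, with a longest shared run of 425 bases. Rbm4b had the higher level per kb in 12 of 12 libraries (0.199 against 0.120), while 60.5% of the exon bases of Rbm4 lie in Gm21992 on the same strand, a readthrough gene with 3 to 14 counts per library. Their log2 fold changes were 0.25 (SE 0.20) and 0.13 (SE 0.28) for Rbm4b and Rbm4, with edgeR adjusted p values of 0.676 and 0.914. Without single libraries, Rbm4b moved between 0.11 (without NK12) and 0.39 (without NK8) and Rbm4 between -0.05 and 0.33. Rbm11, a splicing regulator known from brain and testis, gave -0.22 (SE 0.26), and Rbm20 gave 0.11 (SE 0.31). Rbm24, the muscle splicing regulator that completes this group, had an adjusted p of 0.672.

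**Figure D3:**
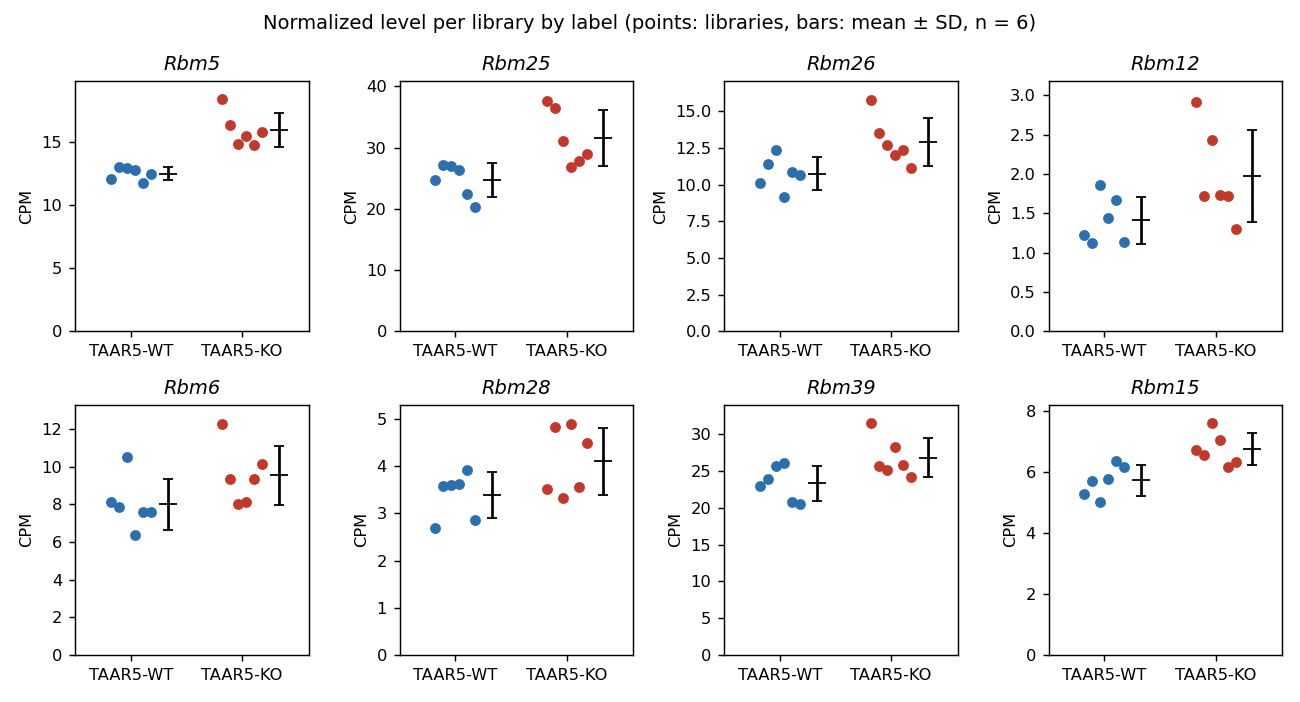
Each panel gives the CPM (TMM library sizes) of 1 of the 8 RBM genes with an unadjusted p under 0.05, with a point for each of 6 libraries per label and a cross bar at the mean ± SD. The groups are apart for Rbm5 (14.8 to 18.4 against 11.7 to 12.98 CPM) and overlap in the other panels, narrowly for Rbm25.

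Parts of the spliceosome and of the exon junction complex held no called gene. Rbm8a (the Y14 protein of the exon junction complex), Rbm22 (in the catalytic core of the spliceosome), and Rbm41 and Rbm48 (both of the minor spliceosome) had log2 fold changes from -0.01 to 0.21, 2 higher and 2 lower, and none passed the test. Standard errors were 0.11 to 0.20 in this group.

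Among genes of the m6A pathway, Rbm15 and its paralogue Rbm15b bring the methyltransferase to its RNA targets. Rbm15 (ENSMUSG00000048109.11, chromosome 3, 107232737 to 107240989) ran from 6.17 to 7.62 CPM in libraries labelled TAAR5-KO and from 5.03 to 6.37 CPM in those labelled TAAR5-WT. All but 2 of the libraries labelled TAAR5-KO exceeded the highest of the other label, and the log2 fold change was 0.20 (SE 0.10, edgeR adjusted p = 0.408). Rbm15b gave 4.64 ± 0.429 against 4.70 ± 0.905 CPM (log2 fold change -0.08, SE 0.12). Rbm33, a partner of the demethylase Alkbh5, was the third of this group (adjusted p = 0.539).

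In the group of RNA decay and stability, 3 of 4 genes had higher values and none passed the test. Rbm26 (ENSMUSG00000022119.16, chromosome 14, 105344187 to 105414763) ran from 11.1 to 15.8 CPM with a median of 12.5 in libraries labelled TAAR5-KO and from 9.15 to 12.4 CPM with a median of 10.7 in those labelled TAAR5-WT. The upper 3 libraries labelled TAAR5-KO exceeded all of the other label, and the log2 fold change was 0.25 (SE 0.10, edgeR adjusted p = 0.252). Its paralogue Rbm27 gave 14.9 ± 1.38 against 14.5 ± 1.12 CPM (log2 fold change 0.03, 95% interval -0.15 to 0.20), and Rbm27 had the higher level per kb in 12 of 12 libraries. Rbm7, the RNA-binding part of the nuclear exosome targeting complex, gave 0.09 (SE 0.13).

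Rbm47, a cofactor of RNA editing and stabiliser of transcripts, had the lowest fold change and the widest spread. It ran from 0 to 2.73 CPM in libraries labelled TAAR5-KO and from 0.316 to 1.93 CPM in those labelled TAAR5-WT, with 0 counts in NK1, where 3 counts would be 0.230 CPM, and the highest value in NK4. The log2 fold change of -0.52 (SE 0.61, edgeR adjusted p = 0.800) became -1.47 without NK4 (adjusted p = 0.109), and its biological coefficient of variation was 68.3%.

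The nucleolar genes Rbm28, Rbm19 and Rbm34, which serve the assembly of ribosomal subunits, all had higher values, none of them past the test. Rbm28 (ENSMUSG00000029701.16, chromosome 6, 29123575 to 29165005) ran from 3.32 to 4.89 CPM with a median of 4.03 in libraries labelled TAAR5-KO and from 2.701 to 3.92 CPM with a median of 3.60 in those labelled TAAR5-WT. Its libraries labelled TAAR5-KO fell into 3 above all of the other label (NK2, NK4 and NK6) and 3 below the other label's median, and the log2 fold change was 0.32 (SE 0.14, edgeR adjusted p = 0.343). Rbm19 gave 0.22 (SE 0.30) on 2 to 28 counts per library.

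Rbm12 (ENSMUSG00000089824.11, chromosome 2, 155933878 to 155953898), a protein of several RNA-binding motifs whose role is little known, had the largest log2 fold change of the 33 genes. It ran from 1.30 to 2.91 CPM with a median of 1.73 in libraries labelled TAAR5-KO and from 1.13 to 1.86 CPM with a median of 1.33 in those labelled TAAR5-WT. Only NK1 and NK3 exceeded all libraries of the other label, and the log2 fold change of 0.49 (SE 0.22, edgeR adjusted p = 0.325) was 0.36 without NK1. Its counts were 12 to 50 per library, and 33.1% of its exon bases are shared on the same strand with Gm28036 (0 counts in every library) or Cpne1 (0 or 1 count).

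Rbm12b1 and Rbm12b2 lie 44020 bases apart on chromosome 4 and are nearly the same gene by sequence. Their coding sequences were 98.1% identical with a run of 1455 identical bases, and 75.9% and 63.0% of their 100-base exon windows had a second place in the genome (the reads were 100 bases long). The first 100 coding bases, from the start codon (in capitals), are given because a read from them cannot tell the genes apart; they stand at chr4:12144030-12144129 in Rbm12b1 and at chr4:12093143-12093242 in Rbm12b2, both on the plus strand of GRCm39.
Rbm12b1 and Rbm12b2: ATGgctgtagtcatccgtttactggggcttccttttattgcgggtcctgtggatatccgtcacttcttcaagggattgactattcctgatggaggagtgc

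Their counts are uncertain for that reason. The deposited counts put Rbm12b2 above Rbm12b1 in 12 of 12 libraries (0.811 against 0.293 CPM per kb), with log2 fold changes of 0.09 (SE 0.20) and 0.21 (SE 0.21). Of the remaining genes with less certain roles, Rbm14 (a coactivator found in paraspeckles), Rbm43, Rbm18 and Rbm45 all had lower fitted values, and none passed the test (smallest adjusted p 0.457, for Rbm43). Rbm43 was the lowest of these at -0.33 (SE 0.18), named here after its values were seen, and none of its 6 libraries labelled TAAR5-KO exceeded the median of the other label.

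Rbm3, induced by mild cold and studied for the upkeep of synapses, was named after its values were seen. It ran from 1.80 to 5.23 CPM in libraries labelled TAAR5-KO and from 2.17 to 5.44 CPM in those labelled TAAR5-WT. The log2 fold change was -0.18 with a 95% interval from -0.61 to 0.26 (edgeR adjusted p = 0.819), an interval that leaves room for either direction.

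Library by library, the higher values of RBM genes were spread unevenly. NK1 held the highest value for 8 of the 33 genes, and NK10 the lowest for 7. The summed level of the 33 genes was 181 to 212 CPM in libraries labelled TAAR5-KO and 159 to 183 CPM in those labelled TAAR5-WT, a sum in which Rbm25 and Rbm39 have the largest share. The median deviation of the 33 genes from their means was lowest in NK12 (-0.12 on a log2 scale) and highest in NK4 (0.088), and the labels overlapped. NK10 (0.057) and NK9 (0.051), both labelled TAAR5-WT, stood above NK1 (0.039), NK3 (0.021), NK5 (0.0061) and NK6 (0.023). NK7, NK8, NK11 and NK12 were below every library labelled TAAR5-KO.

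**Figure D4:**
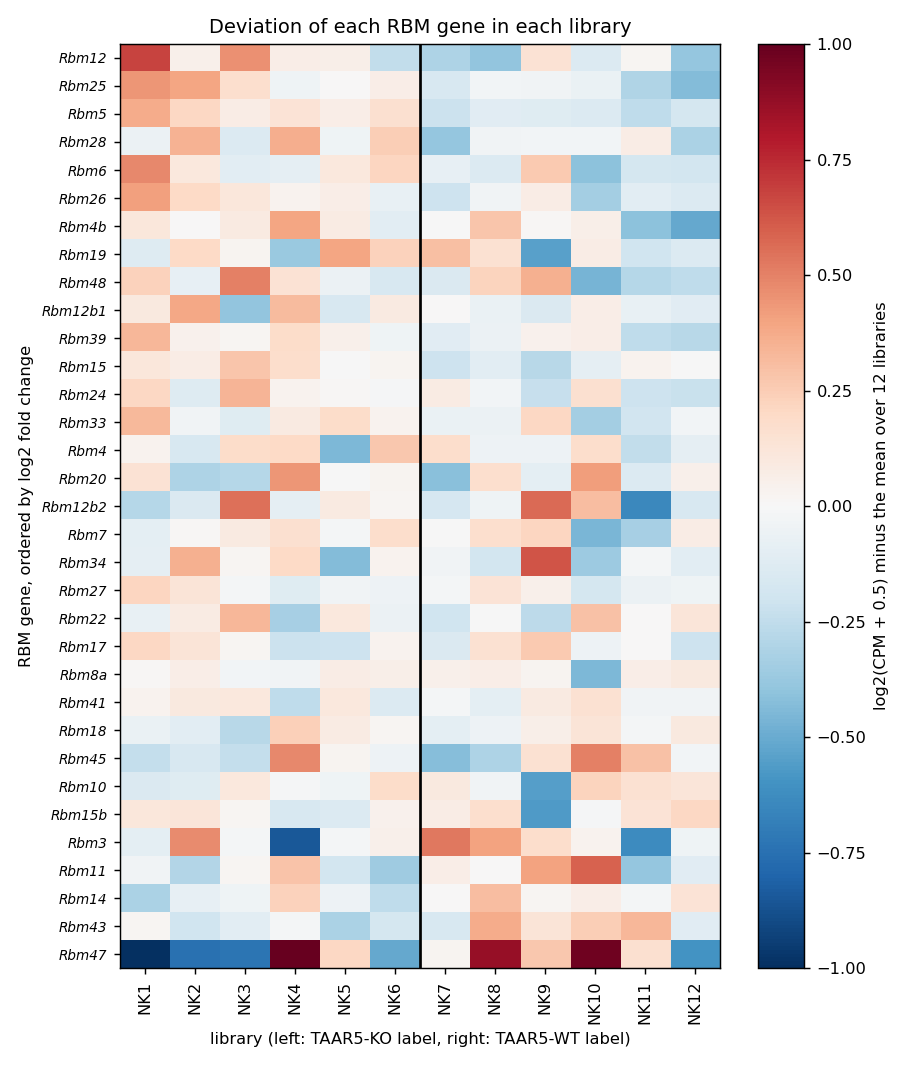
Colour gives log2(CPM + 0.5) minus the gene's mean over 12 libraries, for the 33 RBM genes in rows (ordered by log2 fold change) and the 12 libraries in columns (TAAR5-KO label left of the line); the scale stops at -1 and 1. Rbm5 is above its mean in the 6 columns on the left and below it in the 6 on the right, while Rbm47 at the bottom reaches both ends of the scale.

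Gene length moved with these differences. Among the 11 longest RBM genes (merged exons of 6689 to 17376 bases), 10 had higher values with a median log2 fold change of 0.25, and both called genes and 7 of the 8 genes with an unadjusted p under 0.05 were among them. All features tested of that length had a median of 0.03, with 56.5% higher, 1.77% called and 8.85% higher at an unadjusted p under 0.05. The next 11 had a median of 0.03 with 7 of 11 higher, and the 11 shortest had -0.0029 with 5 of 11 higher. Across the 33 genes, Spearman's rho of log2 fold change was 0.512 with merged exon length and -0.372 with GC content, and across all features it was 0.107 and -0.399. Genes are not independent replicates, and beyond the removal of the length and GC trends given above, the part of these properties was not tested.

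**Figure D5:**
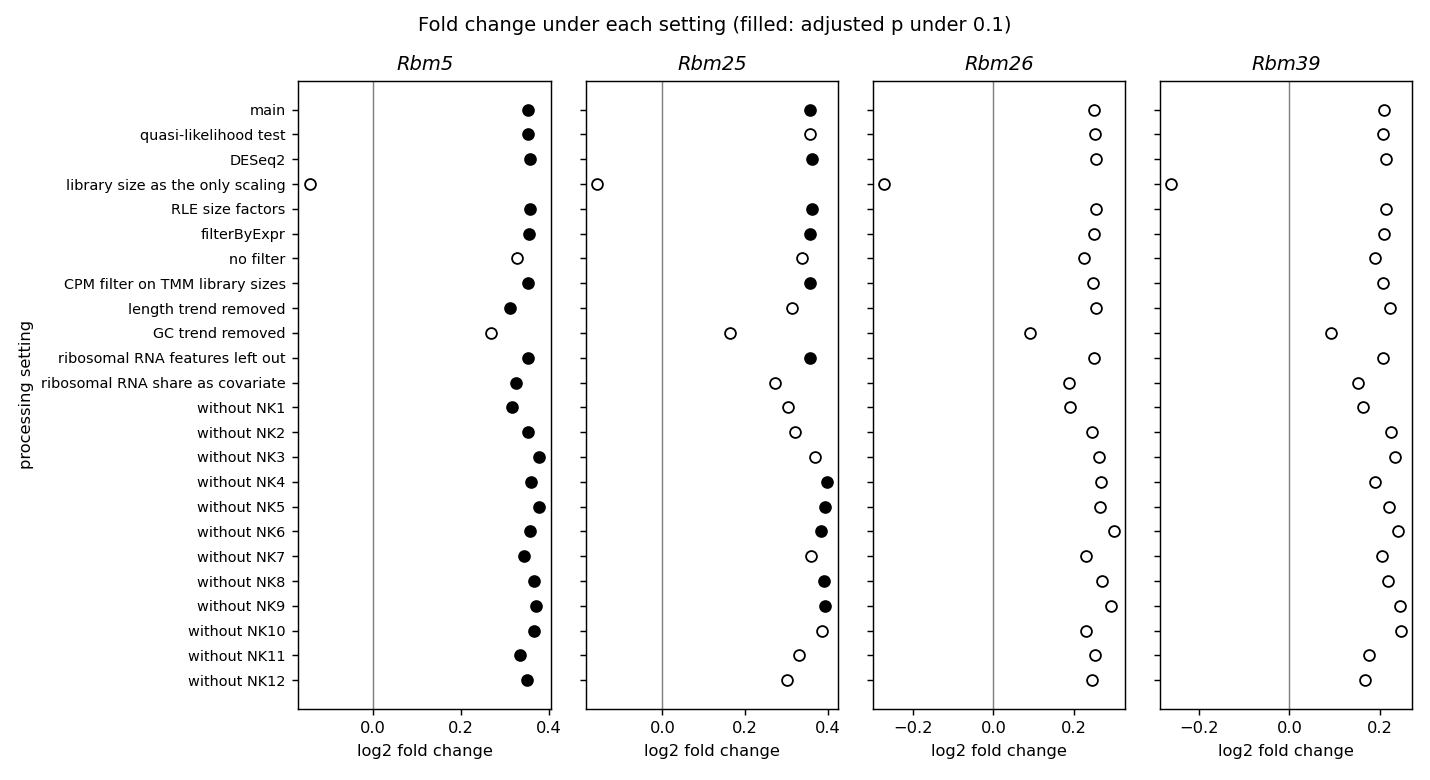
Each panel gives the log2 fold change of Rbm5, Rbm25, Rbm26 or Rbm39 (horizontal axis, own scale per panel) under each processing setting (vertical axis), filled where the adjusted p is under 0.1. Rbm5 stays filled without each library in turn and open with the GC trend removed, without a filter and with library size as the only scaling, where all 4 genes lie below 0.

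The partners of RBM proteins were followed in 6 lists of other genes. Of 31 tested genes for U1, U2 and splice site recognition, 21 had higher values in libraries labelled TAAR5-KO (median log2 fold change 0.06) and 3 were called, all higher. Tia1 and Tial1, whose proteins bind U-rich RNA beside 5′ splice sites and help U1 to settle there, gave 13.7 ± 1.84 against 9.57 ± 1.21 CPM and 13.7 ± 1.38 against 9.94 ± 0.873 CPM (SD, n = 6). Their log2 fold changes were 0.51 (SE 0.11, edgeR adjusted p = 0.00219) for Tia1 and 0.45 (SE 0.095, adjusted p = 0.00169) for Tial1, both with groups that did not overlap and both called by the quasi-likelihood test. Tia1 stayed called after removal of the GC trend and Tial1 did not. Prpf39, a U1-associated protein, gave 8.82 ± 0.804 against 6.997 ± 1.09 CPM (log2 fold change 0.38, SE 0.11, adjusted p = 0.0611), which was over the threshold by the quasi-likelihood test (0.161) and without NK1 (0.189), NK2 (0.154), NK7 (0.196), NK11 (0.245) or NK12 (0.199). Prpf39 also lost its call after removal of the GC trend (0.13, adjusted p = 0.787), with the ribosomal RNA share as covariate (0.30, adjusted p = 0.236) and without a filter (adjusted p = 0.330), and its value was -0.08 with library size as the only scaling.

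None of the other 5 lists held a called gene. Of the exon junction and nonsense-mediated decay genes, 11 of 18 had higher values (median 0.06, smallest edgeR adjusted p = 0.169), of the m6A genes 8 of 14 (median 0.09, 0.147), of the exosome and its targeting complexes 12 of 18 (median 0.05, 0.183), and of the minor spliceosome 8 of 11 (median 0.20, 0.362). Genes named for RNA-binding motifs that the rule on names leaves out, such as Rbmx and Rbms1, had 4 of 9 higher (median -0.01, smallest adjusted p = 0.217). In all, 3 of 101 partner genes were called (2.97%) beside the 1.65% of all features given above, and 18 had an unadjusted p under 0.05 (17.8%), against 11.9% of all features. The partner lists, too, were chosen with earlier results of these data known, so these shares are no test of the lists.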

How the data were processed

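RNA of mouse striatum was sequenced as single-end reads of 100 bases. Per the submitters' processing notes, cutadapt 4.1 trimmed the reads, STAR 2.7.11b placed them on GRCm39, and featureCounts 2.0.6 assigned them to genes (GENCODE M35). What the authors deposited are raw counts, whole numbers for each gene and library, with the length of merged exons. How strand, and reads with several places or genes, were handled is not given in the sources used here. The table's other 12 columns of counts by library were left aside.

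Features needed a CPM on total counts of 0.5 or more in 3 or more libraries. They were scaled by TMM, and compared with glmFit and glmLRT of edgeR 4.0.16 (R 4.3.3), 6 libraries against 6, without covariates. A call is a Benjamini-Hochberg adjusted p under 0.1 over all features, the test and threshold of the study's methods, and the quasi-likelihood test stands beside it. CPM in the text use TMM library sizes. Standard errors and 95% intervals come from the same fit. The fit was tested on simulated counts. Values with 1 number per library were compared over all 924 assignments to labels (exact permutation test, two-sided). Library pairs of the same label differed by 6.78 to 349 times the sampling noise (chi-square over its degrees of freedom, 30 pairs), so none was counted as a repeat. Counting intervals cover counting error only.

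Exon overlap and GC content of genes used the exons given with the deposited counts, on GRCm39. Promoters, coding sequences and gene types came from GENCODE M39, which is later than the release counted on. Windows of 100 bases every 20 bases of exons were aligned with minimap2 2.31, and a second place had at most 2 differences. Trends on length and GC content were removed per library by loess (span 0.5) through offsets. Alternatives were DESeq2 1.42.0, the quasi-likelihood test, library size or RLE scaling, other filters, a threshold of 0.05, removal of ribosomal RNA features, the ribosomal RNA share as covariate, and leaving out each library. Named genes were those called or with an unadjusted p under 0.05, those with groups apart, the 5 highest and 3 lowest per length, the largest and smallest fold change, both genes of paralogue pairs, and called partner genes. The RBM genes, the partner and marker lists and the rule on names were chosen with earlier results of these data known.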

Additional observations from a re-analysis of the deposited data

Results flagged for a closer look

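In 66 groups of 6 libraries (33 RBM genes under each label), the gap of the highest or lowest library to its neighbour, as a share of the group's range, was over Dixon's 95% critical value for 6 values in 5. Chance flags about 1 in 20 such groups. Rbm8a, the exon junction gene, had 2.53 CPM in NK10 where the next library labelled TAAR5-WT had 3.72 CPM (gap 0.848 of the range). Rbm34, a nucleolar gene, had 3.61 CPM in NK9 against 2.12 CPM in the next library of that label (0.727), and Rbm15b, the m6A adaptor, had 2.95 CPM in the same library against 4.58 CPM (0.663). NK4, labelled TAAR5-KO, stood apart for Rbm45, an RNA-binding protein found in inclusions of neurodegenerative disease, with 2.60 CPM against 1.76 CPM (0.686), and for Rbm47, with 2.73 CPM against 0.923 CPM (0.661).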

How the results depend on the processing

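With DESeq2, RLE size factors, filterByExpr, the CPM filter on TMM library sizes or ribosomal RNA features left out, both Rbm5 and Rbm25 stayed called, with 177 to 234 features called. The number of RBM genes called was 1 by the quasi-likelihood test, at a threshold of 0.05, after removal of the length trend and with the ribosomal RNA share as covariate, and 0 without a filter, after removal of the GC trend and on the scale of library size alone. All features called numbered 63 by the quasi-likelihood test, 108 at 0.05, 93 without a filter, 80 after removal of the GC trend, 98 with the covariate and 7 with library size, against 229. Of the calls, 133 of 229 were higher under the TAAR5-KO label, 0 of 7 with library size and 139 of 203 after removal of the length trend. Partner genes called numbered 1 after removal of the GC trend (Tia1) and 0 with library size. The RBM median log2 fold change was 0.041 with the covariate and -0.36 with library size alone, where no RBM gene had groups apart (0). The cause of these shifts was not tested.

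Leaving out each library gave 1 to 2 RBM genes called, 1 to 3 with groups apart, an RBM median of 0.05 to 0.14, 2 to 6 partner genes called (6 without NK4 or without NK8) and 85 to 414 features called (114 without NK1, 114 without NK2, 137 without NK3, 414 without NK4, 102 without NK7, 85 without NK11 and 136 without NK12). Ranges that crossed 0 were those of Rbm12b2 (-0.015 to 0.24), Rbm17 (-0.050 to 0.062), Rbm20 (-0.049 to 0.21), Rbm27 (-0.011 to 0.063) and Rbm4 (-0.052 to 0.33). Other uncalled genes also moved by over 1.5 times, such as Rbm4b (0.11 to 0.39), Rbm19 (0.077 to 0.40), Rbm11 (-0.36 to -0.090) and Rbm7 (0.023 to 0.14).

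On the scale of library size alone, log2 fold changes turned negative for Rbm12 (-0.077), Rbm12b1 (-0.31), Rbm12b2 (-0.29), Rbm15 (-0.30), Rbm17 (-0.47), Rbm19 (-0.28), Rbm20 (-0.28), Rbm25 (-0.16), Rbm26 (-0.27), Rbm27 (-0.49), Rbm28 (-0.093), Rbm39 (-0.26), Rbm4 (-0.42), Rbm4b (-0.19), Rbm5 (-0.14), Rbm6 (-0.22), Rbm7 (-0.37), Prpf39 (-0.084), Tia1 (-0.0052) and Tial1 (-0.071). Removal of the GC trend turned Rbm10 (0.084), Rbm15b (0.049), Rbm27 (-0.061) and Rbm7 (-0.048), the covariate turned Rbm10 (0.038), Rbm12b2 (-0.0081), Rbm17 (-0.083) and Rbm27 (-0.0023), and the fit without a filter turned Rbm17 (-0.017). No paired analysis was possible because the columns carry numbers that the labels do not tie to animals. Genes with few counts, such as Rbm19, Rbm20 and Rbm4, had standard errors of 0.28 to 0.31. Rbm47, with a biological coefficient of variation of 68.3%, had 0.61. The 95% intervals of the log2 fold change were -0.37 to 0.80 for Rbm19, -0.49 to 0.71 for Rbm20 and -0.43 to 0.68 for Rbm4. For Rbm47 the interval was -1.71 to 0.68. All of these intervals include 0, so differences larger than the standard errors could also not be told from 0 in these genes.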
